A study of Mus musculus with 3 samples.

Results

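The granulosa cells (GCs) of 2 barcode sets of a mouse ovary single-cell RNA-seq experiment were compared over all genes, set 3 against set 2. GCs surround the oocyte within the follicle and make estradiol before ovulation. A GC was taken as a cell with a deposited value of *Inha*, the inhibin alpha subunit, of at least 2, with *Cyp17a1* (theca) and *Dcn* (stroma) each below 2 and with *Ptprc* (leukocytes) and *Pecam1* (endothelium) at 0. The deposited value is ln(1 + x), where x counts the UMIs (RNA molecules) of the gene for every 10000 UMIs in that cell. This gate held 9511 cells of sets 3 and 2 among the 31776 cells of the table. Set 3 gave 5169 of them, 45.0% of its cells, and set 2 gave 4342, or 43.8%. Set 1, with 4250 such cells, is given beside as a value only.

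The labels name 3 ovary libraries prepared on the 10x Genomics platform, 1 each at hCG0h, hCG1h and hCG6h. Human chorionic gonadotropin (hCG) acts on the LH receptor and sets off ovulation. The study describes Kunming mice 21 days old, taken 48 h after PMSG, which acts like FSH, and does not state whether PMSG was given before the hCG of the hCG1h and hCG6h libraries. The cell barcodes end in 1, 2 or 3, and which ending belongs to which library is not stated, so the sets carry no time point here. Genotype, the number of mice pooled and the strain of each library are not given in the labels. If each set is 1 library, there is no replicate of either, no test between them was possible, and every interval below covers counting error only.

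The GCs of set 3 held 39886401 UMIs and those of set 2 held 33247425, with medians per cell of 6491 and 6694.5 UMIs and of 2522 and 2254 genes. The level of a gene is its summed UMIs per 10000 UMIs of all GCs of a set, and a ratio is the level in set 3 over that in set 2, with an exact 95% interval. Ratios were taken between sets for 1 gene at a time. Levels of different genes, where added or ranked below, were not corrected for gene length. *Inha*, which chose the cells, stood at 34.0 in set 3 and 58.1 in set 2. The gate was checked on 12 other markers of GCs, whose summed levels were 24.6 (set 3), 99.4 (set 2) and 90.9 (set 1). In cells of a stromal gate (*Dcn* at least 2 and *Inha* below 1) they summed to 1.96 and 5.85 in sets 3 and 2. All 12 were detected in GCs of each set, but their sum was far lower in set 3. The markers did not fall alike. Of 13 with *Inha*, 7 were at least 2-fold lower in set 3 and 0 at least 2-fold higher. Among the 8046 genes compared below, 6.55% were lower and 15.0% higher. The lower markers were *Inhba*, *Inhbb*, *Nr5a2*, *Hsd17b1*, *Fst*, *Fshr* and *Cyp19a1*, while *Foxl2*, *Amh* and *Serpine2* differed by under 2-fold. The summed levels of markers of other cell types, without the genes of the gate, were 2.40 and 3.08 in GCs of sets 3 and 2 for theca, 2.72 and 2.10 for stroma, and 2.48 and 2.31 for smooth muscle. Endothelial markers summed to 0.138 and 0.186, immune markers to 0.167 and 0.145, oocyte markers to 0.0303 and 0.0244, erythroid markers to 0.134 and 0.0337, and epithelial markers to 0.389 and 0.374. *Pecam1* and *Ptprc* were at 0 and *Cyp17a1* and *Dcn* limited by the gate. The part of other cell types in the differences below was not tested. Sets 2 and 3 shared 39 barcode sequences, and 64 of the GCs compared had a barcode found in another set.

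After the LH surge, GCs stop making estradiol, begin to make progesterone and become luteal cells. The surge acts through cAMP and induces EGF-like ligands, which act on neighbouring GCs and on the cumulus cells around the oocyte. These cells then lay down a hyaluronan matrix, the follicle wall is broken down by proteases, and the oocyte is released from meiotic arrest. The comparison of the 2 sets was read over gene groups of this response and over those of metabolism, proliferation and cell identity.

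GCs of set 3 had high levels of a group of genes that were low in set 2, led by *Prkg2*, *Spp1*, *Sult1e1*, *Alcam*, *Fabp4* and *Nts*. Conversely, *Areg*, *F3*, *Cyp19a1*, *Pde10a*, *Srxn1* and *Ereg* were high in set 2 and low in set 3. Of 24958 genes, 21915 had a UMI in either set, and 8046 had a mean level of the 2 sets of at least 0.1 and were compared. Among these, 1203 genes (15.0%) were at least 2-fold higher in set 3 and 527 (6.55%) at least 2-fold lower, with 21.5% past 2-fold in either direction. The 1203 genes made up 12.5% of the UMIs of set 3 and 4.21% of those of set 2, and the 527 genes 3.01% and 10.6%. The interval lay wholly above 2 for 892 genes and wholly below 0.5 for 448. A difference of at least 10-fold was seen for 25 higher and 31 lower genes. The median log2 ratio of all compared genes was 0.29, so low genes were on balance higher in set 3. With the sets scaled by the median of ratios, which brings that median to -0.01, 616 genes were higher and 842 lower, so the share of higher calls moved from 69.5% to 42.2%. The counts under this scaling are therefore given in brackets beside each gene group below. The shares of all genes to read a group against are 15.0% higher and 6.55% lower, and for the counts in brackets 7.68% higher and 10.5% lower, of 8022 genes. Among the 1646 genes with a mean level of at least 1, 147 were higher and 137 lower and the median log2 ratio was 0.10.

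The genes of largest ratio are described first, taken as the 25 highest among genes with a mean level of at least 1. Their ratio chose them, so it is given as a description. *Prkg2*, a cGMP-dependent protein kinase, had a level of 2.05 in set 3, 0.0192 in set 2 and 0.00424 in set 1. The ratio was 106 (83.1 to 138), and the gene was near absent outside set 3. *Sult1e1* encodes the estrogen sulfotransferase, which inactivates estrogens, and had a level of 20.2 in set 3 and 1.19 in set 2, with 1 UMI in all GCs of set 1. *Nts*, the precursor of the peptide neurotensin, stood at 27.5 in set 3, 2.13 in set 2 and 0.00424 in set 1. Both genes were thus detected in set 2 at a level far above that of set 1, and were higher again in set 3, by 17.0-fold (16.5 to 17.6) and 12.9-fold (12.6 to 13.2). *Spp1*, the secreted matrix protein osteopontin, had levels of 4.15, 0.159 and 0.0427 in sets 3, 2 and 1, a ratio of 26.1 (23.9 to 28.5). The *Spp1* ratio moved with the choice of cells, to 97.9 in cells with *Inha* at 2.5 or more, 76.3 without the deepest 10% of cells and 51.7 without cells holding a UMI of *Mki67* or *Top2a*, and was above 2 in each. A single GC of set 2 held 375 of the 529 *Spp1* UMIs of that set, and without this cell the level of set 2 was 0.0463 and the ratio 89.6. The adhesion molecule *Alcam* (2.15, 0.135 and 0.124) and the fatty acid carrier *Fabp4* (2.53, 0.170 and 0.0300) followed, with ratios of 15.9 and 14.9.

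Other genes of this group were also present in sets 1 and 2 and were higher in set 3. The homeobox gene *Rhox8* had levels of 13.3, 1.21 and 1.06 in sets 3, 2 and 1. *Timp1*, an inhibitor of matrix metalloproteinases, had 3.28, 0.303 and 0.251, and the transcription factor *Runx2* had 2.71, 0.334 and 0.273. Their ratios were 10.9, 10.8 and 8.11. Without the deepest 10% of cells, the *Runx2* ratio was 13.2. *Tmsb4x*, which binds actin monomers, had a level of 39.7 against 6.41 and 3.81, and *S100a10*, the partner of annexin A2, stood at 22.0 against 3.67 and 2.81. The metallothionein *Mt2* was 7.23-fold higher (6.96 to 7.51) and the sterol oxidase *Msmo1* 6.44-fold (6.25 to 6.63). The other genes of the group, among them the proteoglycan *Sdc1*, the coregulator *Cited1*, the leucine zipper protein *Tsc22d3* and the chromatin remodeller *Smarca1*, had ratios between 4.85 for *Frmd5* and 9.24 for *Susd3*. Without the deepest 10% of cells, the *Cited1* ratio of 6.96 was 10.7. For *Susd3*, set 1 lay between the sets, at 2.05 against 4.92 in set 3 and 0.533 in set 2. *Lyve1*, a hyaluronan receptor known from lymphatic endothelium, had a larger ratio of 340.0 (218 to 565) but a mean level just under 1, with 1.94 in set 3 from 7749 UMIs and 19 UMIs in all GCs of set 2. It was named after its value was seen.

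The 25 genes of smallest ratio, chosen in the same way, held the EGF-like ligands amphiregulin and epiregulin. *Areg* had a level of 0.126, 12.1 and 0.0200 in sets 3, 2 and 1, and was 95.8-fold higher in set 2 (87.7 to 105). *Ereg* stood at 0.372, 11.3 and 0.0176, and was 30.2-fold higher in set 2 (28.7 to 31.9). For these 2 ligands, set 2 was thus the set of high level, with sets 3 and 1 both far lower. *F3*, tissue factor, which starts blood clotting, showed the same order, at 0.170, 10.9 and 0.0615. So did *Pde10a*, a phosphodiesterase of cyclic nucleotides, at 0.339, 16.4 and 0.0908, and *Srxn1*, the antioxidant enzyme sulfiredoxin, at 0.108, 3.70 and 0.0206. The differences between sets 2 and 3 were 64.1-fold, 48.3-fold and 34.4-fold. *Cyp19a1*, the aromatase that makes estradiol, was present in set 1 as well: 0.0827 in set 3, 5.04 in set 2 and 2.12 in set 1, a level 60.9-fold higher in set 2 than in set 3 (54.6 to 68.1).

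A second kind of lower gene was high in both sets 1 and 2. *Inhba*, the activin and inhibin beta A subunit, had 2.35, 35.7 and 30.8 in sets 3, 2 and 1, and the beta B subunit *Inhbb* had 0.649, 5.65 and 8.41. *Nppc*, the precursor of the peptide by which GCs hold the oocyte in meiotic arrest, had 0.115, 2.35 and 4.04. These 3 genes were 15.2-fold, 8.71-fold and 20.5-fold lower in set 3 than in set 2. *Nap1l5* (1.85, 20.8 and 11.4) and the hedgehog ligand *Ihh* (0.277, 2.11 and 1.13) belonged to the same kind. *Ihh* had a ratio of 0.131, of 0.0672 in cells with no UMI of *Amh* and of 0.0859 without cells holding a UMI of *Mki67* or *Top2a*. *Eif4e*, which binds the cap of mRNAs, was high in set 2 alone, at 14.4 against 2.14 in set 3 and 1.21 in set 1. The remaining genes, which include the cAMP-responsive factor *Crem*, the salt-inducible kinase *Sik1*, the nuclear receptor *Nr4a1*, the clock gene *Cry2* and the kinase *Plk2*, were between 7.14-fold (*Cry2*) and 21.5-fold (*Yod1*) lower in set 3.

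**Figure D1:**
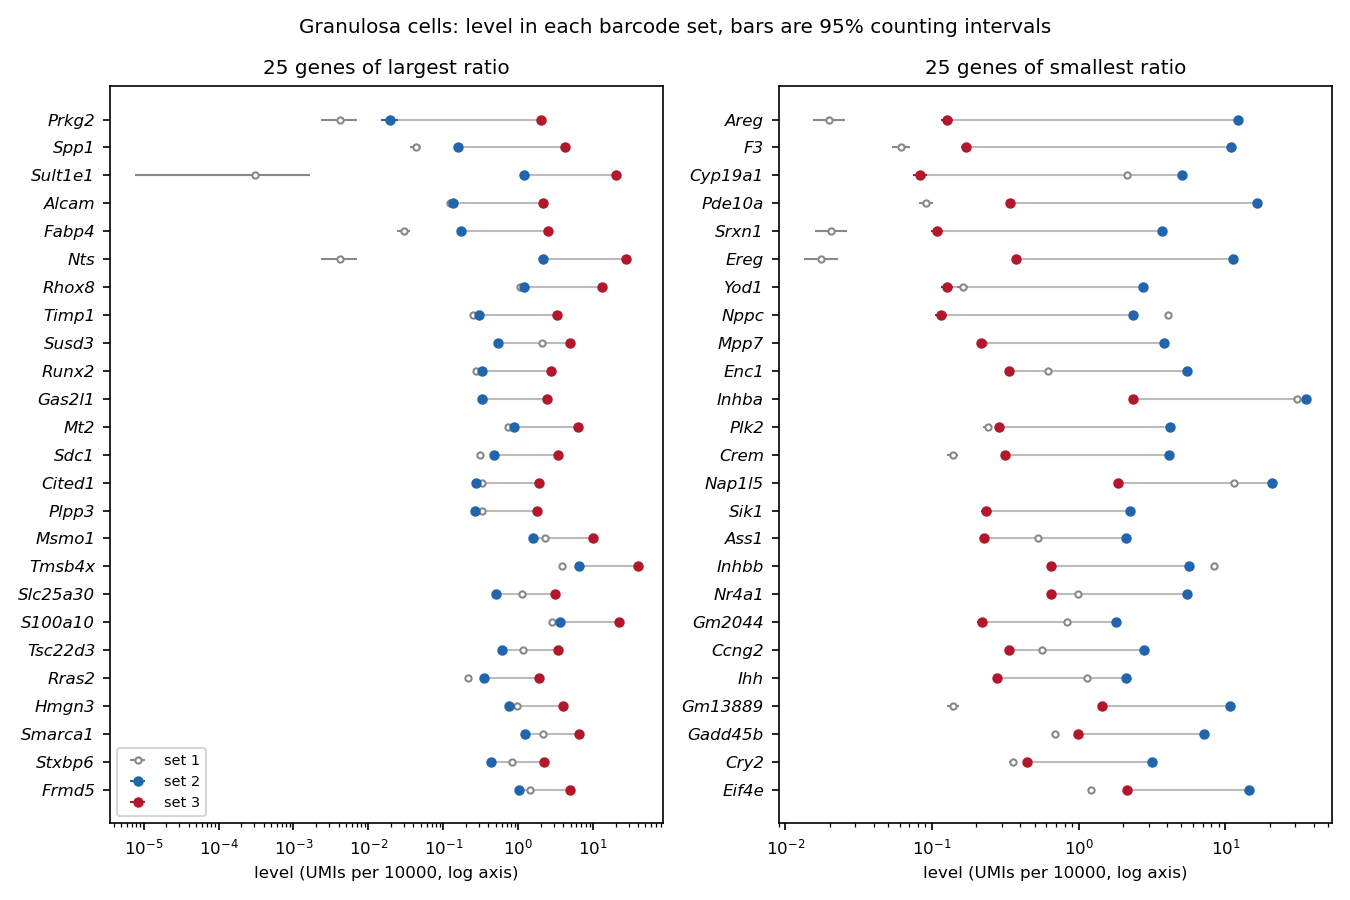
Level (UMIs per 10000, log axis) of the 25 genes of largest (left) and smallest (right) ratio in GCs of set 3 (red), set 2 (blue) and set 1 (open grey), 1 library each, with 95% counting intervals. *Prkg2*, *Sult1e1* and *Nts* are near 0 in set 1, *Areg*, *Ereg*, *F3* and *Srxn1* are high in set 2 alone, and *Inhba*, *Inhbb* and *Nppc* are high in sets 1 and 2.

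The promoters of these genes were read for 2 short motifs, because several of the genes are known to answer to cAMP or to AP-1 factors. TGACGTCA is the cAMP response element bound by CREB, and TGANTCA is the element of AP-1, with N any base. Neither can lie within the other, and both strands were searched. TCACNCCAC, an element of the sterol-responsive SREBP factors, was added after the ratios had been seen. The sequences are RefSeq windows of build GRCm38.p6, from 250 bases before to 50 after the start site. Of the 8046 genes compared, 6450 had a window. TGACGTCA was present in 4.11% of these, in 5.72% of the lower genes (23 of 402) and in 2.53% of the higher genes (25 of 990), against 2.03% of all 27025 genes with a window. TGANTCA was present in 5.52% of the genes compared, 6.97% of the lower and 6.46% of the higher genes, against 8.97% of all. TCACNCCAC was present in 1.36%, 1.49%, 1.41% and 1.44%. The shares of the lower genes lay within 2 percentage points of those of all genes compared for each motif. A match is a description of the letters and not of a site in use.

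Among the 25 genes of smallest ratio, 18 had a window, and TGACGTCA stood in those of *Areg* and *Plk2*, TGANTCA in those of *Srxn1*, *F3* and *Yod1*, and TCACNCCAC in that of *Ihh*. Among the 25 of largest ratio, 19 had a window, and TGANTCA stood in those of *Msmo1*, *Mt2* and *Nts* and TCACNCCAC in that of *Spp1*. The stretches below are 60 bases from the part upstream of the start site, read 5′ to 3′ on the strand of the gene, with each match in capitals. They are chr5:91139512-91139571 (plus strand) for *Areg*, where the match begins 61 bases before the start, chr13:110394956-110395015 (plus) for *Plk2*, chr3:121723364-121723423 (plus) for *F3*, with both of its matches, chr2:152105395-152105454 (plus) for *Srxn1*, with 1 of its 2 matches, chr10:102490593-102490652 (minus) for *Nts* and chr5:104435024-104435083 (plus) for *Spp1*.
Areg: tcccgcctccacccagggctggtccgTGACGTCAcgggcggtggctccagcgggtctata
Plk2: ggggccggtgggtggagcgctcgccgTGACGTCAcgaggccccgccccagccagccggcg
F3: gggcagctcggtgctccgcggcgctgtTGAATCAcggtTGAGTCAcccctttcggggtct
Srxn1: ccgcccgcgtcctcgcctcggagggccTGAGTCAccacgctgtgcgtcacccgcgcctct
Nts: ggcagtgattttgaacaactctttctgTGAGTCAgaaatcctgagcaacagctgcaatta
Spp1: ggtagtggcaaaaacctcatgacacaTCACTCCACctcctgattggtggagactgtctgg
Of the 25 genes of smallest ratio, the 2 with the cAMP element carried it 61 bases before the start in *Areg* and 62 in *Plk2*. Its place in the other lower genes with this element was not read, so no common distance can be taken from these 2. In GENCODE M21 on GRCm38, some of the genes named above lie at chr5:91139599-91148432 (*Areg*), chr5:91074622-91093646 (*Ereg*), chr5:87575969-87591594 (*Sult1e1*), chr5:98929773-99037351 (*Prkg2*), chr5:104435118-104441050 (*Spp1*), chr10:102481756-102490486 (*Nts*) and chr9:54165937-54268110 (*Cyp19a1*). *F3*, *Pde10a*, *Srxn1*, *Alcam* and *Fabp4*, also of large difference, lie on chr3, chr17, chr2, chr16 and chr3. All of these are protein-coding.

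The EGF-like ligands and their receptors pass the LH signal on within the follicle. Of 7 members compared, 1 was higher and 4 lower (0 and 4 with median-of-ratios scaling), with a median log2 ratio of -1.71 against 0.29 over all genes compared. Beside *Areg* and *Ereg*, the ligands *Hbegf* (0.146 in set 3, 0.536 in set 2) and *Epgn* (0.0785 and 0.258) were lower in set 3. Betacellulin (*Btc*) had a ratio of 1.15 (1.10 to 1.20), at 1.37 and 1.19, with 0.0309 in set 1. The receptor *Egfr* was the member higher in set 3, at 0.644 against 0.270, and *Adam17*, the protease that sheds the ligands, had a ratio of 1.00 (0.957 to 1.05). *Egfr* was the only receptor compared, and its call was lost with median-of-ratios scaling.

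Prostaglandins are made in GCs before ovulation by *Ptgs2*, and their uptake ends the signal. Of 9 members compared, 2 were higher and 5 lower (1 and 5 with median-of-ratios scaling), with a median log2 ratio of -1.05. *Ptgs2* had 0.120, 1.14 and 0.00212 in sets 3, 2 and 1, and the synthase *Ptges* 0.446, 1.66 and 0.823. The receptors *Ptger4* and *Ptgfr* were 10.6-fold and 10.9-fold lower in set 3. The prostaglandin transporter *Slco2a1* went the other way, with 1.01, 0.0999 and 0.0454 in sets 3, 2 and 1, a ratio of 10.1 (9.04 to 11.3). The degrading enzyme *Hpgd* was lower, at 0.453 against 0.940.

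The progesterone receptor is induced by LH and is needed for rupture of the follicle. *Pgr* itself had 0.130, 0.887 and 0.0236 in sets 3, 2 and 1, so that it was 6.80-fold lower in set 3 (6.19 to 7.48). Of 14 members of the list of the receptor and its known targets, 4 were higher and 4 lower (2 and 5 with median-of-ratios scaling), with a median log2 ratio of 0.26. *Edn2*, a vasoconstrictor peptide, was 10.4-fold lower in set 3, and the protease *Adamts1* was at 1.90 against 3.85. *Prkg2*, *Snap25*, a protein of vesicle fusion (0.160 and 0.0433), *Zbtb16*, a zinc finger factor (0.711 and 0.187), and the hypoxia factor *Epas1* (1.03 and 0.486) were higher. Targets listed together therefore differed in both directions.

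The cumulus matrix list held 5 genes above the minimum level, of which 3 were higher and 1 lower (2 and 1 with median-of-ratios scaling), with a median log2 ratio of 1.22. *Vcan*, the proteoglycan versican, was 3.02-fold higher (2.98 to 3.06), at 26.2 in set 3, 8.66 in set 2 and 4.0 in set 1. *Ptx3*, which links hyaluronan, stood at 1.34, 0.518 and 0.00545, and *Tnfaip6*, which does the same, at 2.09, 7.17 and 0.00999. Both were near 0 in set 1, but *Ptx3* was 2.59-fold higher in set 3 and *Tnfaip6* 3.43-fold lower. As a mean over cells, in which each cell weighs the same, only *Vcan* of the 3 higher members stayed past 2-fold, and *Ptx3* and *Fn1* had ratios of 1.82 and 1.81. The *Ptx3* ratio was also under 2-fold without the deepest 10% of cells (1.78) and after thinning (1.75). The cells of these genes cannot be assigned to the cumulus, since no cumulus gate was used.

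Receptors for the gonadotropins and the cAMP pathway behind them were on balance lower in set 3. Of 18 members compared, 3 were higher and 9 lower (2 and 9 with median-of-ratios scaling), with a median log2 ratio of -0.84. The LH receptor gene *Lhcgr* had 0.301, 1.02 and 2.04 in sets 3, 2 and 1, and the FSH receptor gene *Fshr* 0.300, 0.623 and 0.915. Both were thus lowest in set 3 and highest in set 1. The regulatory subunit *Prkar2b* of protein kinase A was 4.52-fold lower (4.04 against 18.2), and the phosphodiesterases *Pde4d*, *Pde4b* and *Pde7b* were 6.90-fold, 3.05-fold and 4.40-fold lower. *Crem* and *Rgs2*, an inhibitor of G protein signalling, were at 0.314 against 4.10 and 10.5 against 23.7. The orphan receptor *Gprc5b* (10.5-fold), the phosphodiesterase *Pde1a* (3.87-fold) and the catalytic subunit *Prkaca* (2.03-fold) were higher.

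Factors that answer within minutes to hormones were lower in set 3 or differed by under 2-fold. Of 23 members compared, 0 were higher and 9 lower (0 and 11 with median-of-ratios scaling), with a median log2 ratio of -0.63. The nuclear receptors *Nr4a1*, *Nr4a2* and *Nr4a3* had levels of 0.650, 0.109 and 0.0291 in set 3 and of 5.44, 1.39 and 0.998 in set 2, where all 3 were higher by 8.37-fold, 12.7-fold and 34.3-fold. *Btg2*, an inhibitor of proliferation, the factor *Cebpb* and *Myc* were 3.39-fold, 2.31-fold and 3.03-fold lower in set 3. *Egr1* (0.648), *Ier2* (1.12) and *Klf6* (1.25) had ratios within 2-fold. Of 9 AP-1 and ATF factors, 0 were higher and 3 lower (0 and 3 with median-of-ratios scaling), with a median log2 ratio of -0.50. *Fosl2*, a Fos-family member, had a level of 1.40, 4.54 and 2.68 in sets 3, 2 and 1, and was 3.24-fold lower in set 3 (3.15 to 3.35). *Junb* (7.88 against 21.6) and *Maff* (0.136 against 0.732) were lower as well, while *Fos*, *Jun* and *Jund* had ratios of 1.04, 0.964 and 1.03. Of 8 genes of ERK feedback, 0 were higher and 1 lower (0 and 1 with median-of-ratios scaling), with a median log2 ratio of -0.16. The inhibitor *Spry2* was the lower member, at 0.115 against 0.530.

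Genes of cholesterol supply were mostly higher in set 3, and *Cyp19a1* and *Hsd17b1*, which make estradiol, were lower. Of 24 genes of cholesterol synthesis, uptake and handling, 14 were higher and 1 lower (12 and 1 with median-of-ratios scaling), with a median log2 ratio of 1.34. *Msmo1* had 10.0 in set 3, 1.56 in set 2 and 2.26 in set 1. *Mvd*, *Lss* and *Nsdhl*, which act early, midway and late on the way to cholesterol, were 6.06-fold (5.34 to 6.91), 5.41-fold (4.47 to 6.57) and 5.28-fold (4.88 to 5.71) higher. *Fdft1*, *Sqle*, *Hmgcs1* and *Fdps* were 3.75-fold, 2.94-fold, 2.77-fold and 2.65-fold higher. The cholesterol exporter *Abca1* had 1.24, 0.358 and 0.703 in sets 3, 2 and 1, and the carrier *Stard4* 0.403, 0.146 and 0.236. Set 3 was the highest of the 3 sets for every gene named so far in this list. *Soat1*, which esterifies cholesterol for storage, was the lower member, at 3.72 against 10.4, and *Scarb1*, which takes up cholesterol from HDL, had a ratio of 0.641. In the window upstream of *Hmgcs1* on chr13:119690188-119690247 (plus strand of GRCm38.p6), TCACNCCAC was found once, in capitals, and it was found in no other of the 16 members with a window.
Hmgcs1: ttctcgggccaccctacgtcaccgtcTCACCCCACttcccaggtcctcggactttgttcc

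Of 14 genes of steroid synthesis, 3 were higher and 5 lower (3 and 5 with median-of-ratios scaling), with a median log2 ratio of -0.07. *Cyp17a1* is 1 of the lower members, but it was used in the gate. *Star*, which carries cholesterol into mitochondria, had 7.82 in set 3, 4.61 in set 2 and 0.224 in set 1. *Cyp11a1*, which makes pregnenolone from it, had 11.3, 7.90 and 10.6. Their ratios of 1.70 (1.66 to 1.73) and 1.43 (1.41 to 1.46) were under 2-fold. The electron carrier of that step, *Fdx1*, was 3.95-fold lower in set 3, at 11.1 against 43.7 and 5.0 in set 1, and its reductase *Fdxr* was 2.88-fold higher. *Hsd3b1*, which makes progesterone, had 11.4, 23.9 and 30.8, and *Hsd17b1*, which makes estradiol from estrone, 1.11, 5.78 and 7.86. Both were lower in set 3, as *Cyp19a1* was, while *Sult1e1* and *Akr1c18*, which inactivates progesterone (0.190 against 0.0481), were higher.

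**Figure D2:**
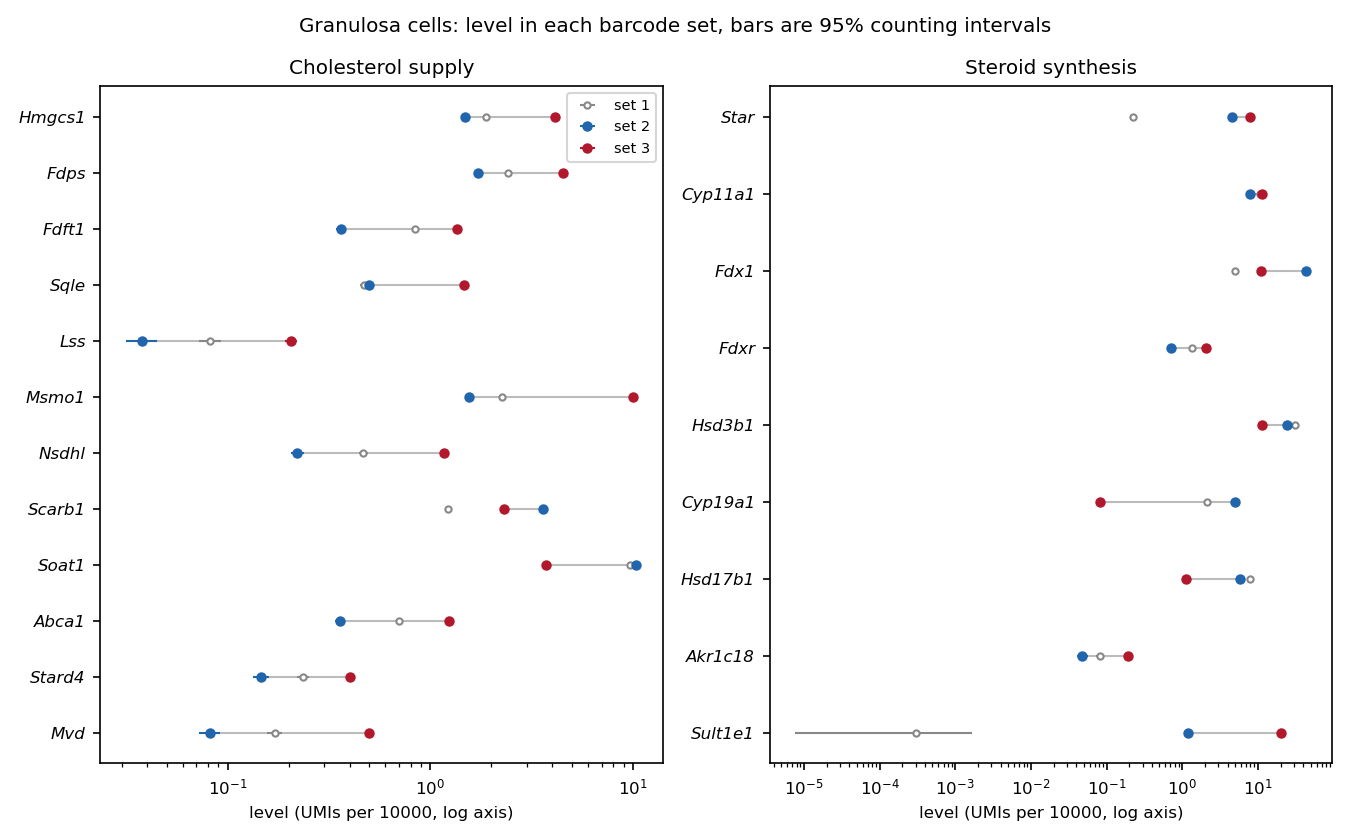
Level (UMIs per 10000, log axis) of the genes of cholesterol supply (left) and steroid synthesis (right) described in the text, in GCs of set 3 (red), set 2 (blue) and set 1 (open grey), 1 library each, with 95% counting intervals. Most cholesterol genes lie to the right in set 3, *Msmo1* furthest, while *Cyp19a1* and *Hsd17b1* lie to the left.

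The hormones of the inhibin, activin, AMH and BMP group, which GCs secrete, and their receptors and inhibitors were lower in set 3 or differed by under 2-fold. Of 20 members compared, 0 were higher and 11 lower (0 and 11 with median-of-ratios scaling), with a median log2 ratio of -1.22. Follistatin (*Fst*), which binds activin, had 3.34 in set 3, 15.5 in set 2 and 10.5 in set 1. The BMP antagonist *Grem1* was 3.94-fold lower in set 3, the receptors *Bmpr2* and *Bmpr1b* 3.27-fold and 2.42-fold, and the targets *Smad7* and *Id3* 2.66-fold and 2.62-fold. *Amh*, made by GCs of small growing follicles, had a ratio of 1.87 (1.72 to 2.03), at 0.452 against 0.242, and its receptor *Amhr2* one of 1.36. The lower members thus held ligands, receptors, antagonists and targets alike.

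GCs hold the oocyte in meiotic arrest through cGMP, which passes through gap junctions. Of 8 members, 1 was higher and 4 lower (1 and 4 with median-of-ratios scaling), with a median log2 ratio of -0.58. The gap junction gene *Gja1* had 5.55 in set 3, 21.3 in set 2 and 22.6 in set 1. *Npr2*, the receptor for the *Nppc* peptide, was at 0.0938 against 0.197, the clearance receptor *Npr3* was 27.6-fold lower in set 3, and *Npr1*, the receptor for other natriuretic peptides, was 4.08-fold higher. Of 10 adhesion and junction genes, which also hold *Gja1*, 2 were higher and 2 lower (2 and 2 with median-of-ratios scaling), with a median log2 ratio of 0.18. The tight junction gene *Cldn3* had a ratio of 12.7 (10.1 to 16.3) beside *Alcam*, and the adhesion protein *Flrt3* was 12.9-fold lower.

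Factors of GC identity are those that set and keep GC fate. Of 14 members, 0 were higher and 2 lower (0 and 3 with median-of-ratios scaling), with a median log2 ratio of -0.0005. *Foxl2*, which maintains GC fate, had a ratio of 0.932 (0.888 to 0.978), *Wt1* of 1.05, *Foxo1* of 1.01 and *Nr5a1* of 1.18. For *Foxl2* and *Foxo1*, set 1 was higher than both, at 2.70 and 6.33. *Nr5a2*, a nuclear receptor needed for ovulation, was 3.87-fold lower in set 3 at 2.45 against 9.45, and *Irx3* 2.49-fold. Of 15 factors of luteinization, 3 were higher and 6 lower (2 and 6 with median-of-ratios scaling), with a median log2 ratio of -0.05. *Runx2* and *Rora* (2.28-fold) were higher with *Smarca1*, and *Cebpa* (0.456 against 2.07), *Cebpb*, *Zeb2* (1.76 against 7.84) and the clock gene *Bhlhe40* were lower. *Runx1* had a ratio of 1.93, with 6.41, 3.33 and 0.629 in sets 3, 2 and 1.

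Of 17 genes known from the corpus luteum, 8 were higher and 3 lower (7 and 3 with median-of-ratios scaling), with a median log2 ratio of 0.79. *Ephx2*, the soluble epoxide hydrolase, had 40.1 in set 3, 11.3 in set 2 and 5.42 in set 1. The WNT antagonist *Sfrp4* had 7.26, 1.90 and 0.961, *Parm1* 1.56, 0.222 and 0.134, the apolipoprotein *Apoa1* 1.38, 0.471 and 0.398, and the metabolic enzyme *Idh1* 5.22, 2.23 and 3.88. The 3 lower members, *Ptgfr*, *Hsd3b1* and *Lhcgr*, also belong to the corpus luteum, so the list did not differ in 1 direction. Of 13 genes of notch, hedgehog and WNT signalling, 4 were higher and 3 lower (3 and 6 with median-of-ratios scaling), with a median log2 ratio of -0.52. The receptors *Notch2* (3.64-fold) and *Fzd1* (3.98-fold) and the ligand *Wnt4* (2.02-fold) were higher, and the notch targets *Heyl* (3.60-fold) and *Hey1* (6.11-fold) were lower with *Ihh*.

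Proliferation genes were on balance higher in set 3, to a degree that depends on the scaling. Of 29 members, 9 were higher and 0 lower (4 and 1 with median-of-ratios scaling), with a median log2 ratio of 0.65. The higher members numbered 5 without cells holding a UMI of *Mki67* or *Top2a* and 14 without the deepest 10% of cells. *Gmnn*, which limits the licensing of replication, was 4.57-fold higher (4.27 to 4.89), the helicase subunits *Mcm5* and *Mcm7* 2.85-fold and 2.21-fold, and the mitotic kinases *Plk1* and *Aurka* 2.56-fold and 2.55-fold. *Mki67* and *Top2a* had ratios of 1.30 and 1.57. The share of GCs with a UMI of either was 29.3% in set 3 and 20.1% in set 2, with median depths of 9957 and 10169.5 UMIs in those cells. Of 14 D cyclins, their kinases and inhibitors, 1 was higher and 4 lower (1 and 6 with median-of-ratios scaling), with a median log2 ratio of -0.50. The inhibitors *Gadd45b* (0.984 against 7.19), *Btg1* (2.77 against 11.7) and *Gadd45a* (0.443 against 1.18) were lower and *Ccnd3* was 2.62-fold higher. *Ccnd2*, the D cyclin of GCs, had a ratio of 0.546.

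Of 20 genes of glycolysis and glucose uptake, 4 were higher and 1 lower (1 and 1 with median-of-ratios scaling), with a median log2 ratio of 0.53, so most of its higher calls rest on the scaling. *Pfkfb4*, a regulator of glycolysis, was 3.94-fold higher (3.59 to 4.32) and the lactate carrier *Slc16a1* 6.64-fold lower. Of 12 genes of glycogen metabolism above the minimum level, out of 28 listed, 3 were higher and 0 lower (2 and 1 with median-of-ratios scaling), with a median log2 ratio of 0.66. The glycogen synthase *Gys1* (0.170 against 0.0538), *Pgm1* (0.469 against 0.177) and *Phkg2* were higher. Of 20 genes of lipid droplets and fatty acids, 5 were higher and 0 lower (1 and 2 with median-of-ratios scaling), with a median log2 ratio of 0.57. The desaturase *Scd1* was 7.94-fold higher (7.03 to 9.0), and the lipid droplet protein *Plin2*, the lipase *Pnpla2*, the fatty acid importer of mitochondria *Cpt1a* and the ligase *Acsl1* were 2.41-fold, 2.43-fold, 2.34-fold and 2.01-fold higher.

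Of 20 antioxidant and metallothionein genes, 3 were higher and 1 lower (3 and 1 with median-of-ratios scaling), with a median log2 ratio of 0.22. The metallothioneins *Mt1* (13.8 against 5.29) and *Mt2* and the glutathione transferase *Gstm1* (3.50-fold) were higher and *Srxn1* lower. Of 13 mitochondrially encoded genes, 0 were higher and 1 lower (0 and 5 with median-of-ratios scaling), with a median log2 ratio of -0.63. Scaled by total UMIs, every one of these genes had a ratio below 1, from 0.439 for *mt-Atp8* to 0.908 for *mt-Nd1*. *mt-Atp6*, for example, had 68.9 in set 3, 118 in set 2 and 104 in set 1. Of 9 genes of retinoid metabolism, 1 was higher and 0 lower (1 and 0 with median-of-ratios scaling), with a median log2 ratio of 0.33. The carrier *Rbp4* was the higher member, at 0.276 against 0.0686 and 0.00817 in set 1.

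Of 19 extracellular matrix genes, 8 were higher and 2 lower (6 and 3 with median-of-ratios scaling), with a median log2 ratio of 0.72. Besides *Lyve1*, *Spp1* and *Vcan*, the basement membrane collagens *Col4a1* and *Col4a2* were 2.91-fold and 3.31-fold higher, the fibronectin receptor subunit *Itga5* 5.20-fold, *Fn1* 2.33-fold and *Sparc* 2.29-fold, while *Thbs1* and *Col4a5* were 2.69-fold and 2.90-fold lower. Of 15 proteases and inhibitors of the follicle wall, 3 were higher and 2 lower (3 and 2 with median-of-ratios scaling), with a median log2 ratio of 0.28. The inhibitors *Timp1* and *Timp2* (2.86-fold) and the protease *Adamts9* (2.60-fold) were higher, and the proteases *Adamts5* (4.18-fold) and *Adamts1* (2.02-fold) lower. Of 25 cytoskeletal genes, 7 were higher and 0 lower (4 and 1 with median-of-ratios scaling), with a median log2 ratio of 0.23. *Vim* (8.36 against 2.5), *Tagln2* (8.01 against 2.63) and the tubulins *Tuba1a* (3.05-fold) and *Tuba1c* (4.46-fold) were among the higher members. *Actb* and *Acta2* had ratios of 1.15 and 1.00.

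Of 12 angiogenic signals, 3 were higher and 3 lower (2 and 5 with median-of-ratios scaling), with a median log2 ratio of -0.29. *Angptl4* was 8.12-fold higher (7.45 to 8.85) and the VEGF coreceptor *Nrp1* 3.61-fold, while *Vegfa* had a ratio of 0.529 and *Edn1* and *Edn2* were 3.70-fold and 10.4-fold lower. Of 14 members of the insulin-like growth factor system, 4 were higher and 2 lower (4 and 4 with median-of-ratios scaling), with a median log2 ratio of 0.06. The binding proteins *Igfbp4*, *Igfbp6* and *Igfbp5* were 4.30-fold, 3.18-fold and 2.72-fold higher and the receptor *Igf1r* 2.22-fold lower. Of 13 cytokine and chemokine genes, 1 was higher and 1 lower (1 and 4 with median-of-ratios scaling), with a median log2 ratio of -0.07. The chemokine receptor *Cxcr4* was higher, at 0.980, 0.255 and 0.0218 in sets 3, 2 and 1, and *Tnfsf11* (RANKL) lower, at 0.0694, 0.732 and 0.868. Of 11 peptides and other secreted signals, 3 were higher and 4 lower (3 and 4 with median-of-ratios scaling), with a median log2 ratio of -0.04. *Npy*, neuropeptide Y, was higher together with *Nts* and *Spp1*, at 2.57, 0.853 and 0.00121, and kit ligand (*Kitl*) and *Gdnf* were 3.73-fold and 3.11-fold lower.

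Of 23 genes of the unfolded protein response, 0 were higher and 0 lower (0 and 2 with median-of-ratios scaling), with a median log2 ratio of -0.02, and the chaperone *Hspa5* had a ratio of 0.984 (0.971 to 0.996). Of 21 genes known to answer to heat shock or tissue dissociation, 1 was higher and 3 lower (1 and 4 with median-of-ratios scaling), with a median log2 ratio of -0.07. *Hspa1a* and *Hspa8* had ratios of 0.953 and 0.968, the chaperone *Hspb1* was 2.71-fold higher, and the lower members were *Junb*, *Btg2* and the co-chaperone *Bag3*. Of 18 genes of apoptosis and atresia, 4 were higher and 3 lower (4 and 4 with median-of-ratios scaling), with a median log2 ratio of -0.11. *Bak1*, *Bcl2l1*, *Casp8* and *Nupr1* were 3.45-fold, 3.15-fold, 3.06-fold and 2.83-fold higher, and the atresia-associated *Itih5*, *Ccn2* and *Ghr* 6.41-fold, 4.90-fold and 4.75-fold lower. A further list of 11 genes came from an earlier account of clusters of these cells. It was chosen on these cells, so its counts of 6 higher and 3 lower (6 and 4 with median-of-ratios scaling) and its median of 1.37 are no independent evidence. Its called genes, such as *Nts*, *Sult1e1* and *Tnfsf11*, also count in lists above. All lists were chosen with earlier results of these data known, so the counts of the others are descriptions as well.

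**Figure D3:**
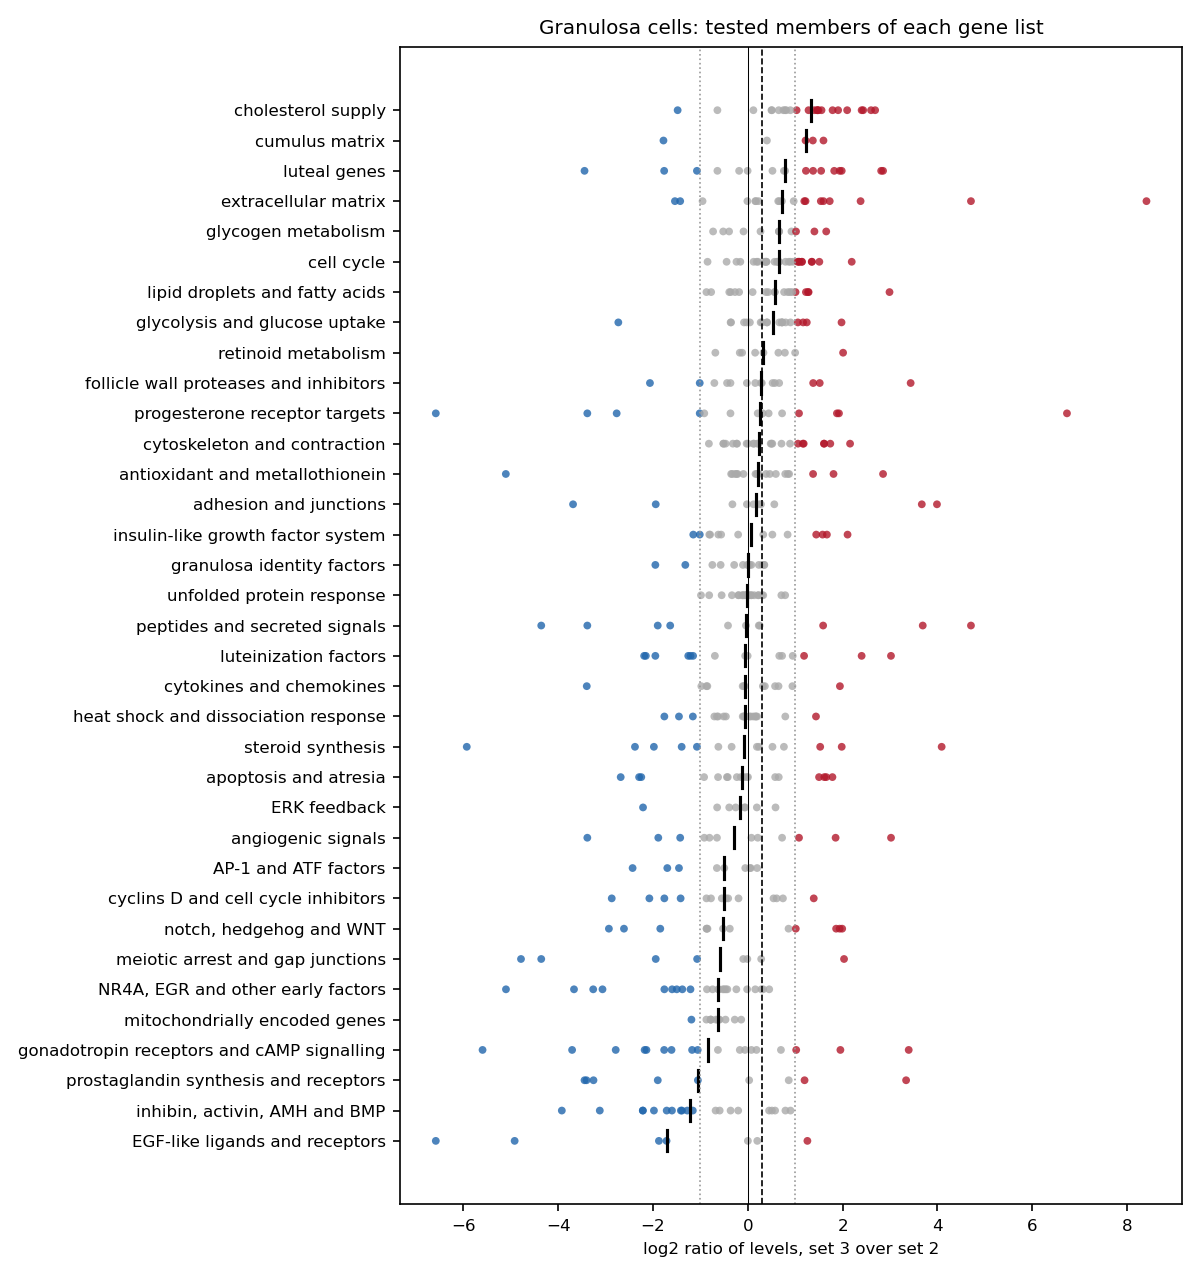
Each row is 1 gene list and each point a compared member, placed by its log2 ratio of set 3 over set 2 in GCs (red at least 2-fold higher, blue at least 2-fold lower, grey under 2-fold). Black ticks are list medians, the dashed line is the median of all compared genes at 0.29 and the dotted lines mark 2-fold. The list from the earlier account is not drawn, but genes of it are members of lists drawn. All lists were chosen with earlier results of these data known. Among the lists drawn, cholesterol supply has the highest median, 1.34, and the EGF-like ligands and receptors the lowest, -1.71.

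The genes that gave most UMIs to the difference were ranked after the values were seen. Of the higher genes, *Ybx1*, a protein that binds RNA and DNA, had 61.3, 19.1 and 9.46 in sets 3, 2 and 1, and *Tmsb4x*, *Ephx2* and *Nts* came next. Of the lower genes, the nuclear RNA *Malat1* had 152, 239 and 226, a ratio of 0.636, and *mt-Atp6*, *mt-Co3* and *Inhba* came next. The order by difference of levels therefore held genes of ratio under 2-fold, such as *Malat1*, as well as the 15.2-fold lower *Inhba*.

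The differences were next described over single cells. Each GC was thinned to 3000 UMIs, and 378 cells of set 3 and 314 of set 2 with fewer UMIs were left out, which left 4791 and 4028. After thinning, *Nts* was detected in 43.3% of GCs of set 3 and 8.19% of set 2 (58.6% and 11.4% before thinning). *Sult1e1* was detected in 59.5% and 13.1% (67.3% and 17.2% before), and *Prkg2* in 28.5% and 0.496% (38.4% and 1.15% before). Free RNA in droplets can give UMIs to cells that do not express a gene, so the shares in an endothelial gate (*Pecam1* at least 1, and *Inha*, *Cyp17a1* and *Dcn* below 1) are set beside, at median depths of 5435 and 6187 UMIs against 6491 and 6694.5 in GCs. In it, thinned shares in sets 3 and 2 were 21.6% and 2.15% for *Nts*, 13.7% and 1.72% for *Sult1e1* and 1.32% and 0% for *Prkg2*. Before thinning the endothelial shares were 37.5% and 4.30%, 27.5% and 2.15%, and 3.93% and 0%. Of 232 thinned endothelial cells of set 2, 0 had a *Prkg2* UMI, which allows a share of up to 1.29%. The GC share was above the endothelial share for all 3 genes in set 3, and by the least for *Nts*.

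Among lower genes, *Areg* was detected in 2.88% of thinned GCs of set 3 and 47.3% of set 2 (6.23% and 57.6% before thinning), *Ereg* in 6.41% and 46.7% (11.4% and 56.4%), *Cyp19a1* in 2.02% and 55.2% (4.26% and 64.8%), *Pde10a* in 7.79% and 83.1% (16.6% and 85.7%) and *Inhba* in 26.5% and 75.5% (39.4% and 82.8%). The thinned endothelial shares of set 2 were 10.8%, 9.05%, 6.47%, 19.8% and 23.7%, all below those of GCs. In set 3 they were 0%, 0.881%, 0.441%, 3.08% and 2.64%, again below those of GCs, with 0 of 227 cells for *Areg*, which allows a share of up to 1.32%. In the stromal gate of set 3 they were 3.35%, 11.2%, 0.0698%, 18.4% and 3.91%, above the GC shares for *Areg*, *Ereg* and *Pde10a* and below them for *Cyp19a1* and *Inhba*. The part of free RNA in these shares was not tested.

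The higher genes were spread over GCs of set 3 to very different degrees. The 10% of thinned cells with most UMIs of a gene held 99.3% of the UMIs of *Npy*, 94.3% of *Spp1*, 90.9% of *Lyve1*, 73.4% of *Nts* and 71.7% of *Fabp4*. For *Sult1e1*, *Msmo1* and *Ephx2* the share was 43.8%, 37.4% and 28.0%. This share also depends on how many UMIs a gene has. After thinning, *Npy*, *Spp1* and *Lyve1* had 4361, 4419 and 3186 UMIs in set 3, and *Ephx2* had 61186. *Prkg2* and *Alcam*, with 3212 and 2896 UMIs, had shares of 64.6% and 52.7%. *Npy*, *Spp1* and *Lyve1* were thus concentrated in fewer cells than *Prkg2* and *Alcam*. The gap to *Ephx2* was not separated from its higher UMIs. In set 2, the top 10% held 58.2% of *Areg*, 57.0% of *Ereg*, 40.7% of *Cyp19a1* and 30.7% of *Pde10a* UMIs.

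Detection of these genes in the same thinned cells is given as a description, since depth is equal but free RNA is shared by the cells of a set. In set 3, *Sult1e1* was detected in 78.3% of cells with *Nts* and 45.2% of those without, and in 88.9% of cells with *Prkg2* and 47.8% of those without. *Rhox8* was detected in 81.7% of cells with *Prkg2* and 44.6% without. In cells with *Spp1* and in the others, *Prkg2* was detected in 26.1% and 28.9%, *Sult1e1* in 74.9% and 56.8%, *Nts* in 53.0% and 41.5%, and *Timp1* in 55.5% and 41.5%. *Amh* was detected in 2.13% of *Prkg2* cells and 12.3% of the others. In set 2, *Ereg* was detected in 70.0% of *Areg* cells and 25.8% of the others, *Cyp19a1* in 73.3% and 38.9%, and *Amh* in 1.10% and 7.02%. *Ihh*, like *Amh*, was detected less often in *Areg* cells, in 26.1% of them and 35.3% of the others.

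The genes of largest and smallest ratio were also compared within groups of GCs. Cells with an *Amh* UMI were 15.5% of GCs in set 3 (800 cells) and 8.22% in set 2 (357 cells). In them, 18 of the 25 genes of largest ratio were at least 2-fold higher and all 25 of smallest ratio at least 2-fold lower, while in GCs without *Amh* all 25 and 25 were. Among genes with a level of at least 1, 2.10% were higher and 2.61% lower in cells with *Amh*, against 10.6% and 9.31% in cells without. *Cited1* had a ratio of 1.26 in cells with *Amh* and 9.20 in those without, *Smarca1* 1.69 and 6.08, and *Susd3* 1.93 and 11.3. *Sult1e1* and *Nts* had ratios of 23.6 and 15.8 in cells with *Amh*. Cells with and without a UMI of *Mki67* or *Top2a* both had all 25 genes past 2-fold in each direction. The genes were chosen by their ratio in these same GCs. Their counts past 2-fold in the subsets, most of all in the large ones, are therefore a description and no further support. No minimum level within a subset was set for these counts, unlike for the shares of all genes.

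The same ratios were taken in cells outside the GC gate. In the stromal gate, with 1535 cells in set 3 and 1032 in set 2, 12 of the 25 genes of largest ratio were at least 2-fold higher in set 3 and 22 of the 25 of smallest ratio at least 2-fold lower. In a theca gate (*Cyp17a1* at least 2, with *Inha* and *Dcn* below 2), with 85 and 148 cells, 24 and 24 were. This gate admits cells of higher *Inha* than the stromal and endothelial gates, which hold it below 1. In the endothelial gate, with 280 and 279 cells, 12 and 14 were. Over genes at a mean level of at least 1 in the gate, 9.10% were higher and 4.91% lower in the stromal gate. The shares were 11.0% and 7.80% in the theca gate, 1.93% and 1.98% in the endothelial gate and 8.93% and 8.32% in GCs. The counts of the 25 genes took no such minimum, so genes with few or no UMIs in a set were counted, and counts and shares are not on the same footing. *Timp1* was 21.8-fold higher in stromal cells, at 16.2 against 0.743, so this gene was not particular to GCs. *Nts* was 20.7-fold higher in stromal cells, but at 1.63 against 0.0790, levels far below those of GCs. *Tmsb4x* was abundant in stromal cells of both sets, at 26.9 and 21.2, with a ratio of 1.27 against 6.20 in GCs. *Fosl2* was lower in set 3 in all 3 gates, with ratios of 0.345, 0.403 and 0.392. The part of free RNA from GCs in these values was not tested.

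**Figure D4:**
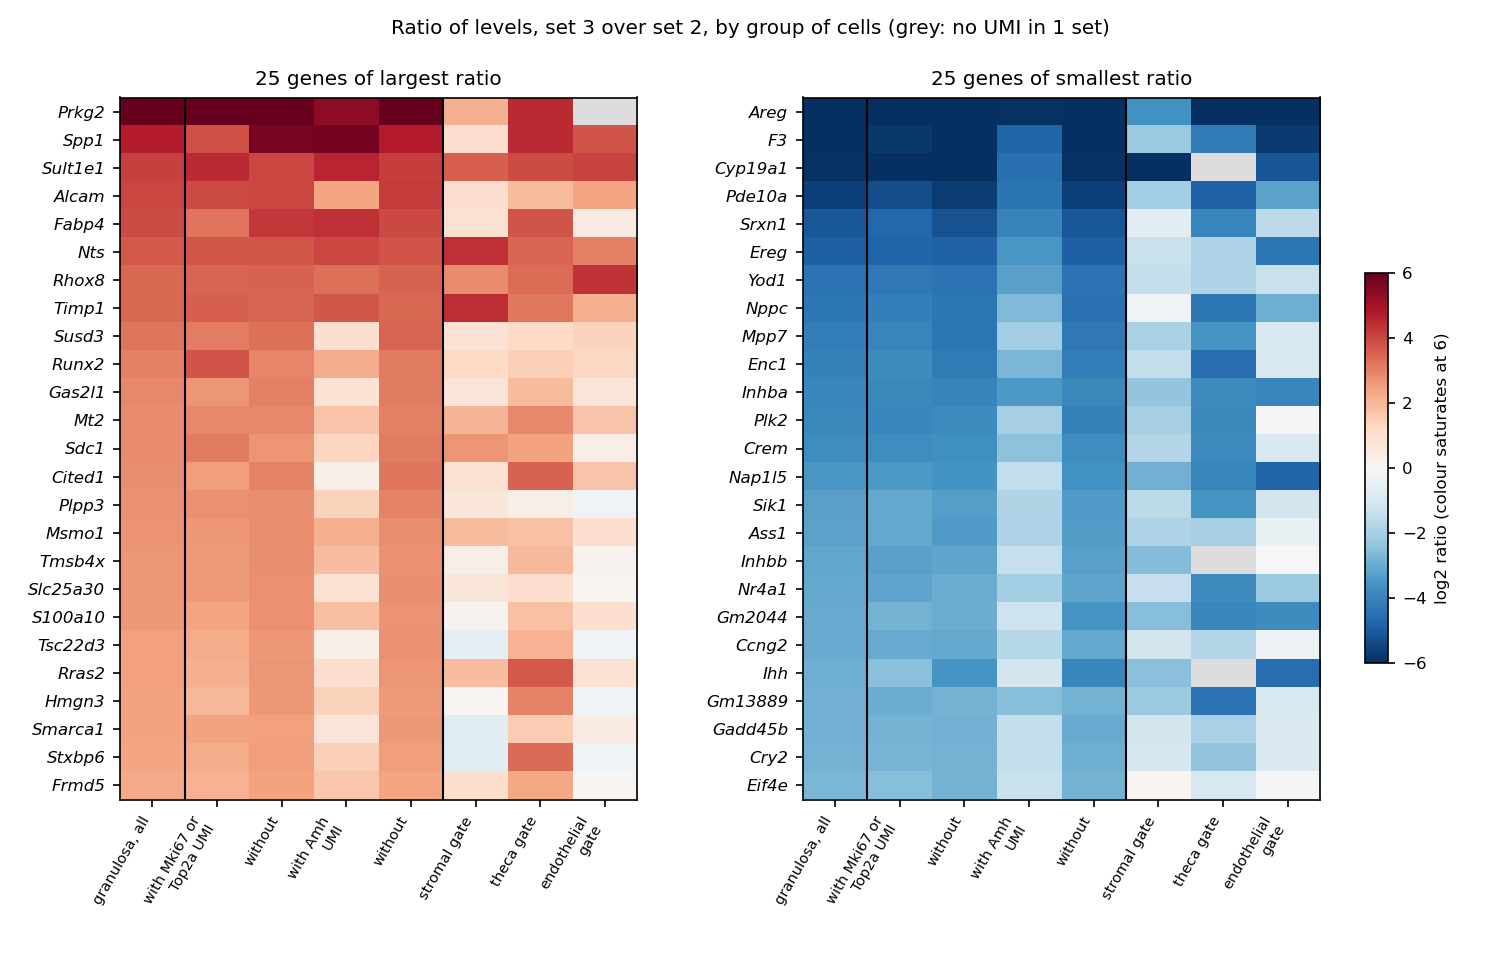
Log2 ratio of set 3 over set 2 for the 25 genes of largest (left) and smallest (right) ratio in all GCs, in GCs with or without a UMI of *Mki67* or *Top2a*, in GCs with or without a UMI of *Amh*, and in the stromal, theca and endothelial gates. Red is higher in set 3, blue lower, grey marks a set with no UMI, and the colour saturates at 6. The columns of GCs are alike except for paler colours in cells with *Amh*, and the stromal and endothelial columns hold most of the pale cells.

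The cells at the edge of the gate were few. With *Inha* from 2.0 to 2.2 there were 173 cells in set 3 and 177 in set 2, whose summed level of the other 12 GC markers was 15.0 and 16.6. With *Inha* from 1.8 to 2.0, just outside, there were 164 and 191 cells, with 11.8 and 16.0. The median *Inha* value of the gated cells was 3.41 in set 3 and 3.99 in set 2.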

How the data were processed

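Single-cell RNA-seq libraries of mouse ovary were made by the authors on the 10x Genomics platform, and the submitters' processing notes name Cell Ranger, Seurat and build mm10, without versions. The authors deposited 1 table of 31776 cells and 24958 genes of natural log values, ln(1 + UMIs per 10000 UMIs of the cell). UMI counts were worked back from it and were whole for 100.0% of values within 0.01 UMI. Each deposited cell has at least 500 UMIs, and any filter of the authors on cells or genes is not given in the sources used here.

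GCs were gated on the deposited values. Levels were compared as summed UMIs per 10000, with exact Poisson intervals for levels and exact conditional binomial intervals (Clopper-Pearson) for ratios, at 95%. A gene was called at 2-fold, with a mean level of at least 0.1. Cells and UMIs are not replicates, and with 1 library per set no p-value was computed. No doublet caller was run, and an alternative left out the deepest 10% of cells. The 36 gene lists hold 670 genes. Named genes were the 25 of largest and the 25 of smallest ratio at a mean level of at least 1, the members of the lists, the genes of the gate and *Fosl2*. Some list members are counted but not reported by name here. The cells, members and lists were chosen with earlier results of these data known. Scripts were tested on simulated counts. Python tools were numpy 2.4.6, scipy 1.17.1, pandas 2.3.3 and matplotlib 3.10.9.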

Additional observations from a re-analysis of the deposited data

Results flagged for a closer look

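Genes were flagged where the GC and stromal ratios of set 3 over set 2 lay on opposite sides of 1. Both counting intervals had to be clear of 1. Of the 50 genes of largest or smallest ratio in GCs, 4 were flagged. *Smarca1* had a stromal ratio of 0.634 (0.576 to 0.698) against 5.28 in GCs, with stromal levels of 0.814 in set 3 and 1.28 in set 2. *Tsc22d3* had 0.661 (0.600 to 0.729) against 5.53, and *Stxbp6* 0.630 (0.503 to 0.788) against 5.16. *Eif4e* had 1.09 (1.01 to 1.17) against 0.148. With 1 library per set, these differences between cell types were not tested, and the intervals cover counting error only.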

How the results depend on the processing

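No paired analysis was possible because each barcode set is taken as 1 library and no result comes from a test. Counts of genes at least 2-fold higher and lower in set 3 were 1203 and 527, and under the alternatives of gate, depth, cells left out, shared barcodes and mean over cells they ran from 1064 to 1440 and from 504 to 591. Leaving the 50 most abundant genes out of the totals gave 1199 and 643. Other settings moved a count by over 1.5 times. Median-of-ratios scaling gave 616 higher and 842 lower, no minimum level 4887 and 4078, a minimum of 0.5 gave 348 and 237, a fold of 1.5 gave 2676 and 1003, and a fold of 3 gave 304 and 235. Of the 100 higher and 85 lower list members, 72 and 85 were still called with median-of-ratios scaling, and 90 to 100 and 82 to 85 under the other 11 settings. Of 612 ratios of the 50 genes of extreme ratio and *Fosl2* under 12 settings, 7 moved by over 1.5 times, and since extreme ratios chose these genes, their staying past 2-fold is no sign of stability. The *Spp1* ratio of 26.1 was 97.9 with *Inha* at 2.5 or more, 51.7 without cells holding a UMI of *Mki67* or *Top2a* and 76.3 without the deepest 10% of cells. Without the 1 cell of set 2 with most *Spp1* UMIs, an alternative chosen after seeing the data, it was 89.6. Depth limits genes of low level, and genes under a mean of 0.1 were not compared.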

Other observations

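Genes outside the lists and with a mean level of the 2 sets below 1, or ranked by difference of level, were looked up after their values were seen, and are given as values. *Tmem37* had 1.61 in GCs of set 3, 0.0571 in set 2 and 0.0509 in set 1, a ratio of 28.2 (24.4 to 32.7). *Asgr1*, a receptor for glycoproteins, had 0.777, 0.0295 and 0.0106, and *Akr1b7*, an aldo-keto reductase known from steroid-making tissues, 0.411, 0.0400 and 0.00605. *Mrap*, the accessory protein of the ACTH receptor, stood at 13.6, 5.54 and 0.803, in rising order from set 1 to set 3. Among lower genes, *Elovl4*, which makes very long fatty acids, was 25.3-fold lower in set 3 (0.0301 against 0.761), and *Grin2b*, a glutamate receptor subunit, 14.4-fold (0.0353 against 0.510). The elongation factor *Ell2* had 0.117, 1.68 and 0.0757 and the cytochrome *Cyb5a* 9.15, 23.5 and 21.4 in sets 3, 2 and 1, so that *Ell2* was high in set 2 alone and *Cyb5a* in sets 1 and 2.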
